A study of Mus musculus with 138 samples.

Results

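The genes described here were 40 cell-cycle genes, measured across 4 calvarial sutures of C57BL/6J mouse embryos at embryonic days E16.5 and E18.5. They were a fixed list of names of genes that dividing cells transcribe, with no threshold on expression, drawn up with earlier results of these data known. Of the 40 genes, 28 act in mitosis and 12 act in S phase, and all 40 passed the low-count filter that left 19768 of 55487 genes for testing.

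Laser-capture microdissection had cut the suture mesenchyme (SM), the unossified tissue between 2 bones, and the osteogenic fronts (OFs), the growing bone edges beside it. The frontal suture gave SM and the front of the frontal bone (FR), the coronal suture SM, FR and the front of the parietal bone (PA), the lambdoid suture SM, PA and the front of the interparietal bone (IP), and the sagittal suture SM and PA. Each of the 20 combinations of suture, region and age held 5 libraries, 1 per embryo, so 40 wild type embryos gave 100 libraries, and SM and OF libraries with the same replicate number came from the same embryo. In addition, 4 single-cell RNA-seq libraries had been made from coronal suture strips, 2 at each age.

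A dividing cell copies its DNA in S phase and separates the copies in mitosis. Licensing factors and the Mcm helicase load on replication origins, Pcna holds the polymerases on the fork, and Rrm2 and Tyms supply nucleotides. Cyclins A and B with Cdk1 then drive entry into mitosis, where Aurora and polo kinases, kinetochore proteins and kinesins build the spindle. Many of these transcripts rise only in cycling cells, and in a bulk library their level depends both on how many cells cycle and on how much of each transcript a cycling cell holds, which cannot be told apart here. In the calvaria the osteogenic front is the edge at which a bone advances and holds dividing osteoprogenitors.

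Depth ranged from 7305627 to 34518477 counts per library, with a median of 14244957. Among these 100 libraries each coronal one was deeper than any of the other sutures, and the coronal groups at E16.5 had median mitochondrial shares of 33.8% to 37.9%. At E18.5 the coronal medians of 22.8% to 26.4% lay within the range of the frontal groups, 18.9% to 26.4%. Counts were scaled to CPM, a share of the library's counts, with TMM factors, and edgeR's quasi-likelihood test over all 100 libraries gave log2 fold changes with standard errors (SE) and Benjamini-Hochberg adjusted p-values. A gene was called when its adjusted p was under 0.05. Among the members, Mki67 had the highest mean level per length, at 83.5 CPM per kb of exon, followed by Top2a at 33.4 and Pcna at 33.2 CPM per kb. At the other end were Cdt1 at 4.65, Ccne1 at 4.39 and Cdc6 at 2.70 CPM per kb.

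The first question was whether the mesenchyme and the fronts differed in cell-cycle transcripts. Outside the coronal suture the members' median was below 0 in SM relative to the adjacent OF in each of the 8 comparisons, with 8 to 39 of 40 members called lower and none called higher in SM. The share of all genes called higher there was 2.76% and 4.23% in the frontal suture (E16.5, then E18.5) and 6.58% and 10.8% in the sagittal suture. In the lambdoid suture it was 3.90% (IP) and 9.68% (PA) at the earlier age and 7.34% (IP) and 9.87% (PA) later. The difference was largest in the sagittal suture at E18.5, where 39 of 40 members fell in SM relative to PA, against 14.5% of all genes tested. The median log2 fold change of the members was −1.43 there, and Ccne1 was the exception (−0.68, adjusted p = 0.10). The mitochondrial share was higher in SM than in PA in 5 of 5 of these embryos, at 16.2% to 22.1% in SM and 14.3% to 19.2% in PA, and its part in the difference was not tested. In that comparison the mitotic cyclin Ccna2, which partners Cdks from S phase into mitosis, measured 22.2, 36.7, 33.0, 26.4 and 26.1 CPM in the SM of embryos 1 to 5 and 85.1, 89.5, 78.4, 104 and 123 CPM in their PA. Every SM value lay below every PA value, and the log2 fold change was −1.73 ± 0.18 (SE; edgeR adjusted p = 6.6e-14).

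Cdca3, which promotes degradation of the mitotic inhibitor Wee1, measured 13.03, 12.96, 15.4, 14.5 and 11.6 CPM in the same SM libraries and 39.0, 54.9, 37.6, 46.9 and 54.9 CPM in PA. These groups did not overlap either, and the log2 fold change was −1.79 ± 0.19 (edgeR adjusted p = 2.4e-13). Rrm2, the regulated subunit of ribonucleotide reductase, measured 18.7, 22.3, 19.7, 18.1 and 22.1 CPM in SM and 61.7, 65.7, 53.8, 87.0 and 106 CPM in PA. The SM libraries were tightly grouped and lay well under the lowest PA library (log2 fold change −1.89 ± 0.22, edgeR adjusted p = 8.4e-12). Pcna, the sliding clamp of the fork, measured 26.6, 44.7, 39.1, 44.5 and 41.2 CPM in SM against 80.1, 94.8, 83.1, 104 and 116 CPM in PA. Embryo 1 was the lowest in both regions, and the log2 fold change was −1.29 ± 0.20 (edgeR adjusted p = 8.8e-08). Cdk1, the kinase that starts mitosis, had the most negative fold change of any member in any of the 12 comparisons of SM with OF, −2.04 on the log2 scale.

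**Figure D1:**
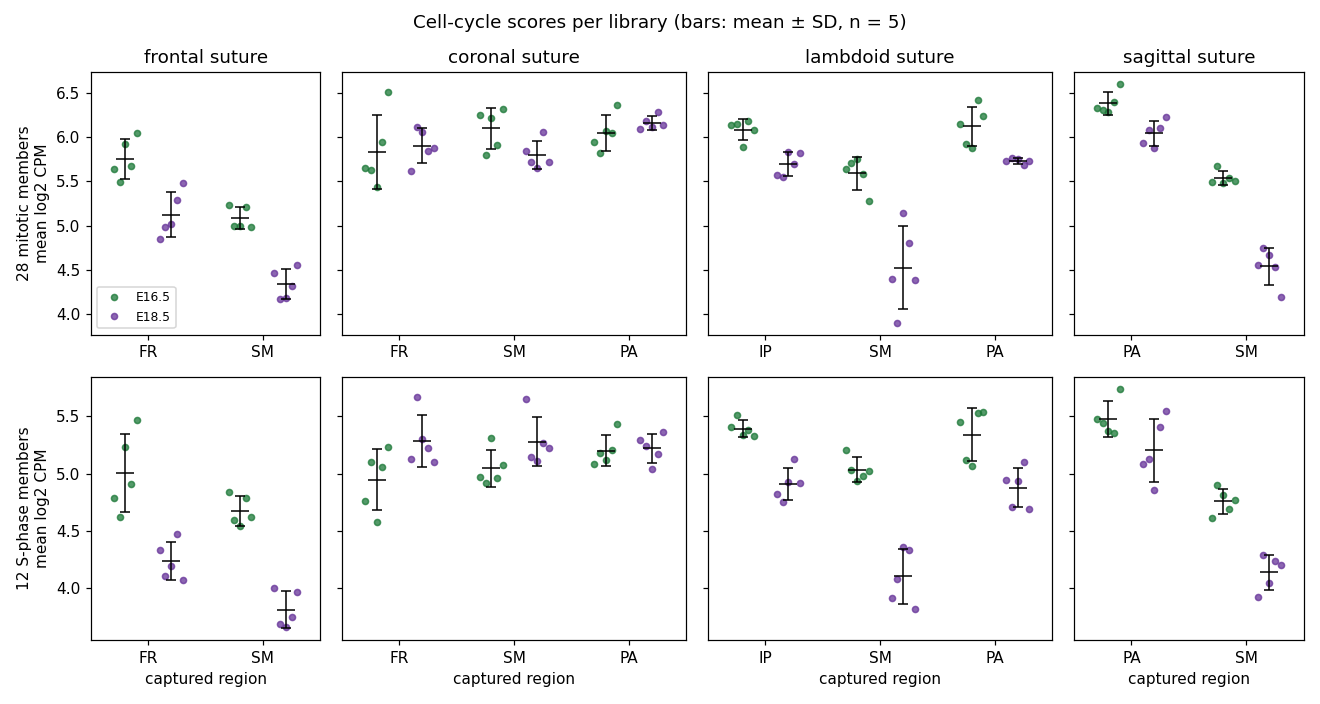
Mean log2 CPM of the 28 mitotic members (upper row) and the 12 S-phase members (lower row) in each of the 100 first libraries, by suture, region and age (green E16.5, purple E18.5). Points are single embryos, bars are mean ± SD over 5 embryos, and in the frontal, lambdoid and sagittal sutures the SM means lie below those of the fronts of the same age. The coronal SM groups overlap their fronts, except for the mitotic members at E18.5, where SM (up to 6.056) lies below PA (from 6.087).

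Sagittal SM at E16.5 already lay below PA, with 34 of 40 members called lower (background 11.2% of all genes lower) and a median of −0.81. The 6 members not called were Ccnb2, Ccne1, Ccne2, Ckap2l, Kif23 and Spc24.

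In the lambdoid suture the difference was modest at E16.5 and wide at E18.5. At E16.5, 8 members were called lower in SM than in IP (background 7.30%; median −0.37) and 15 were called lower than in PA (background 13.4%; median −0.49). At E18.5 the counts were 34 against IP (background 12.2%; median −1.03) and 35 against PA (background 14.7%; median −1.02). The comparisons with IP and PA shared the same 5 SM libraries. The E16.5 counts changed with single replicates: without replicate 1, 4 or 5 they were 0, 0 and 1 against IP and 5, 3 and 6 against PA. With each suture and age fitted by itself they rose to 19 and 26, and to 20 and 25 with the embryo as a fixed block, and total counts without TMM gave 1 and 1. Ccnb1, the cyclin that activates Cdk1 at mitotic entry, measured 15.5, 7.58, 33.2, 21.1 and 15.7 CPM in lambdoid SM at E18.5. Its level was 42.6, 41.5, 43.5, 48.8 and 55.2 CPM in IP and 45.6, 49.8, 43.0, 46.2 and 55.6 CPM in PA. SM of embryo 3 was the highest of its group and embryo 2 the lowest, and no SM library reached an OF library (log2 fold change −1.31 ± 0.23 against IP, edgeR adjusted p = 4.5e-06; −1.37 ± 0.23 against PA, 1.5e-06). Mcm5, a subunit of the replicative helicase, measured 14.6, 20.2, 19.04, 19.7 and 10.8 CPM in SM, 32.2, 41.8, 33.9, 33.6 and 33.3 CPM in IP and 33.5, 41.7, 32.9, 25.9 and 31.4 CPM in PA. The groups did not overlap, and the log2 fold changes of Mcm5 were −1.05 and −0.97 (edgeR adjusted p = 8.9e-05 and 0.00025).

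In the frontal suture 19 members were called lower in SM than in FR at E16.5 (background 5.15%; median −0.66) and 27 at E18.5 (background 6.88%; median −0.70). Top2a, the topoisomerase that untangles replicated chromosomes, measured 186, 161, 161, 199 and 156 CPM in SM and 240, 225, 323, 278 and 359 CPM in FR at E16.5. Its values at E18.5 were 105, 86.6, 92.0, 103 and 110 CPM in SM and 154, 200, 193, 206 and 281 CPM in FR. At both ages the highest SM library lay under the lowest FR library (log2 fold change −0.72 ± 0.17 and −1.06 ± 0.17, edgeR adjusted p = 0.0011 and 9.5e-07). The count at E18.5 depended on the test: limma voom called 9 members lower there, and voom with the embryo as a random block 12, against 27 with edgeR. Leaving out replicate 4 gave 16 there, and at E16.5 leaving out replicate 1, 3, 4 or 5 gave 12, 7, 10 or 7 in place of 19. With the embryo as a fixed block, fitted by suture and age, 32 members were lower at the earlier age and 16 at the later, and the same fit without the block gave 32 at E16.5. In FR at E18.5 replicate 5 had 52.3% mitochondrial counts, against 22.6% to 35.6% in the other 4 libraries, 20627 genes detected, against 23864 to 25244, and a TMM factor of 0.60. Without replicate 5 the count at E18.5 was 25.

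The mean over the members of the log2 CPM served as a score for each library, given here as a description with no test. The difference in score between SM and OF of the same embryo was below 0 in 5 of 5 embryos in each of the 8 comparisons outside the coronal suture, and the SM scores did not overlap the OF scores in any of them. In the sagittal suture it was −0.81 ± 0.16 at E16.5 and −1.38 ± 0.29 at E18.5 (mean ± SD, n = 5 embryos, log2 scale). For the frontal suture the difference was −0.57 ± 0.33 and −0.68 ± 0.19. The lambdoid suture gave −0.45 ± 0.16 (IP) and −0.46 ± 0.32 (PA) at E16.5, and at the later age −1.06 ± 0.30 (IP) and −1.08 ± 0.35 (PA).

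**Figure D2:**
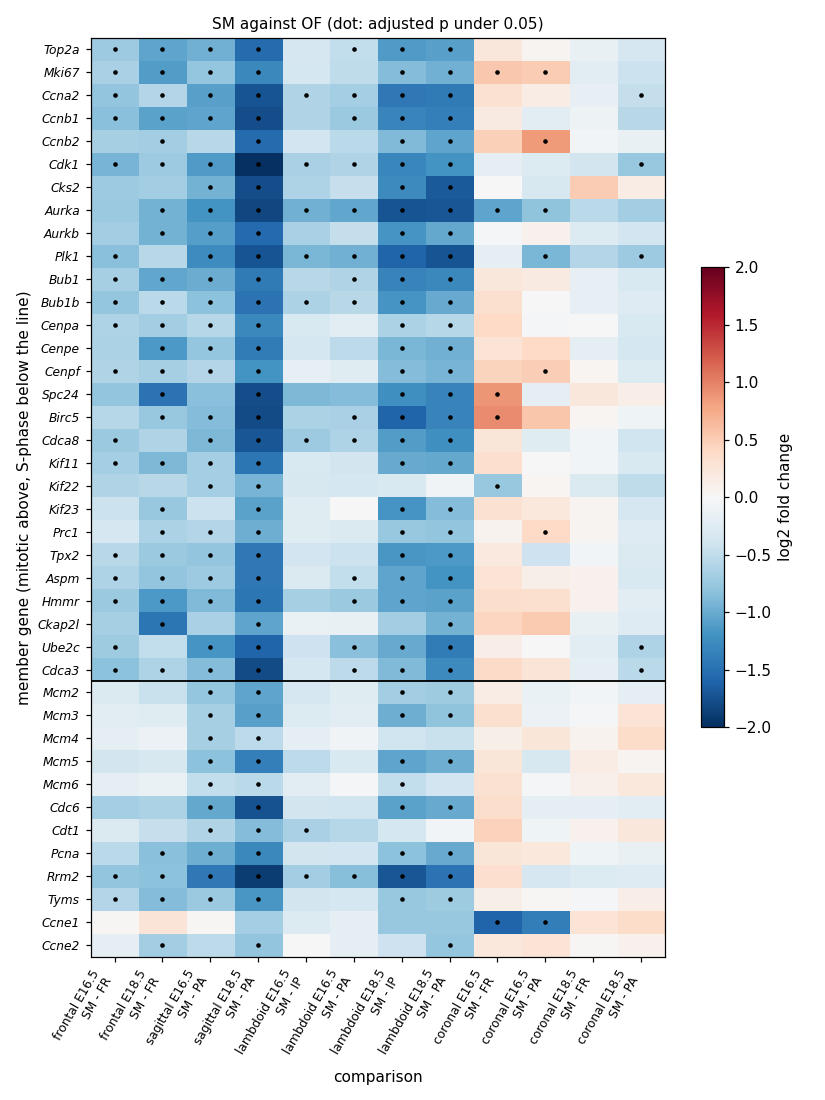
Log2 fold change of each of the 40 members between SM and OF in the 12 comparisons, mitotic members above the line and S-phase members below it, with dots where edgeR's adjusted p was under 0.05. Blue is lower in SM. The 8 columns outside the coronal suture hold no member called higher in SM.

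In the coronal suture fewer members were called. At E16.5, 3 members were called higher in SM than in FR and 3 lower, where 15.4% and 14.9% of all genes were called higher and lower. Against PA, 4 were higher and 3 lower (backgrounds 19.0% and 16.6%), and the members' medians were 0.26 and 0.01. These shares were under the backgrounds. The lower members were Aurka, Ccne1 and Kif22 against FR and Aurka, Ccne1 and Plk1 against PA, with the mitotic kinase Aurka at −1.06 ± 0.28 and −0.81 ± 0.28 (edgeR adjusted p = 0.0024 and 0.018). At E18.5 no member was called in either direction between SM and FR by edgeR (backgrounds 1.04% and 2.41%), nor by DESeq2 or limma voom, and 1 member had an unadjusted p under 0.05. Against PA, 5 members were lower in SM (background 9.77%) and none higher by edgeR (background 8.27%, with 1 at an unadjusted p under 0.05, 1 by DESeq2 and 0 by limma voom). The lower members were Ccna2, Cdca3, Cdk1, Plk1 and Ube2c. Single replicates moved these counts: at E16.5 the higher members against FR numbered 1 without replicate 3 and 9 without replicate 5, those against PA 1 and 2 without replicate 1 or 4, and the lower members against PA at E18.5 numbered 1 or 2 without any one of the replicates. The score difference in the coronal suture was 0.21 ± 0.40 against FR and −0.01 ± 0.17 against PA at E16.5, becoming −0.08 ± 0.32 and −0.24 ± 0.13 at E18.5 (mean ± SD, n = 5 embryos). Against PA at E18.5 it was below 0 in 5 of 5 embryos, also for the mitotic members alone (−0.36 ± 0.12), although with total counts in place of TMM the mean was 0.052. Pairing by embryo with limma voom, as a random block, gave 11 members lower there, voom without the block 9, DESeq2 2 and total counts 0.

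The test of the difference itself took the mean coronal SM-OF difference less the mean of the 8 other comparisons, in which the lambdoid suture counts with both its fronts. It was called for 37 of 40 members, all toward a higher value in the coronal suture, where 12.6% of all genes were called in that direction and 8.15% in the other. The median of this difference was 0.81 on the log2 scale, against 0.09 over all genes tested. The 3 members not called were Aurka, Ccne1 and Kif22. The coronal libraries were also deeper than the others and, at E16.5, had higher mitochondrial shares. At E18.5 their median shares of 22.8% to 26.4% still exceeded those of all lambdoid and sagittal groups, 13.5% to 21.0%. The coronal E16.5 groups had medians of 19772 to 20936 genes detected, against 22778 to 26892 in the groups of the other sutures. The part of gene detection in the result was not tested. With mitochondrial genes left out of the counts, an alternative added after the data had been seen, this comparison stayed within 1.5 times its count, and the part of depth in the result was not tested.

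Mki67, the marker antigen of cycling nuclei, was among 6 members called in both directions. In coronal SM at E16.5 it measured 2585, 1045, 1499, 1138 and 3182 CPM, in FR 1010, 855, 966, 1047.7 and 2640 CPM, and in PA 1248, 978, 1475, 1154 and 1757 CPM. The groups overlapped widely, with embryo 5 the highest in each region, and the log2 fold changes of 0.54 ± 0.21 and 0.51 ± 0.21 sat at the threshold (edgeR adjusted p = 0.046 and 0.049). Embryo 5 had mitochondrial shares of 52.4% in FR, 42.7% in PA and 51.0% in SM, with TMM factors of 0.50, 0.62 and 0.58. The part of this in its Mki67 values was not tested. In sagittal SM at E18.5, by contrast, Mki67 was 425, 450, 350, 391 and 343 CPM against 981, 890, 778, 1025 and 1116 CPM in PA. Those groups did not overlap (log2 fold change −1.29 ± 0.22, edgeR adjusted p = 9.4e-07).

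The other members called in both directions were the mitotic cyclin Ccnb2, the kinetochore proteins Cenpf and Spc24, the survivin gene Birc5, whose product anchors the chromosomal passenger complex, and the midzone organiser Prc1. Each was higher in coronal SM at E16.5, by 0.85, 0.49, 0.88, 0.94 and 0.39 on the log2 scale, Ccnb2, Cenpf and Prc1 against PA and Spc24 and Birc5 against FR (edgeR adjusted p between 0.0016 and 0.049). All 5 were lower in sagittal SM at E18.5, by −1.53, −1.20, −1.77, −1.79 and −0.97. The calls of higher members in coronal SM were not stable: none was made with the second coronal libraries in place of the first, with each suture and age fitted by itself, or with the embryo as a fixed block. Other fits gave more than the 3 against FR and 4 against PA: total counts without TMM 11 and 7, limma voom 8 against FR, and the embryo as a random block 10 against FR.

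**Figure D3:**
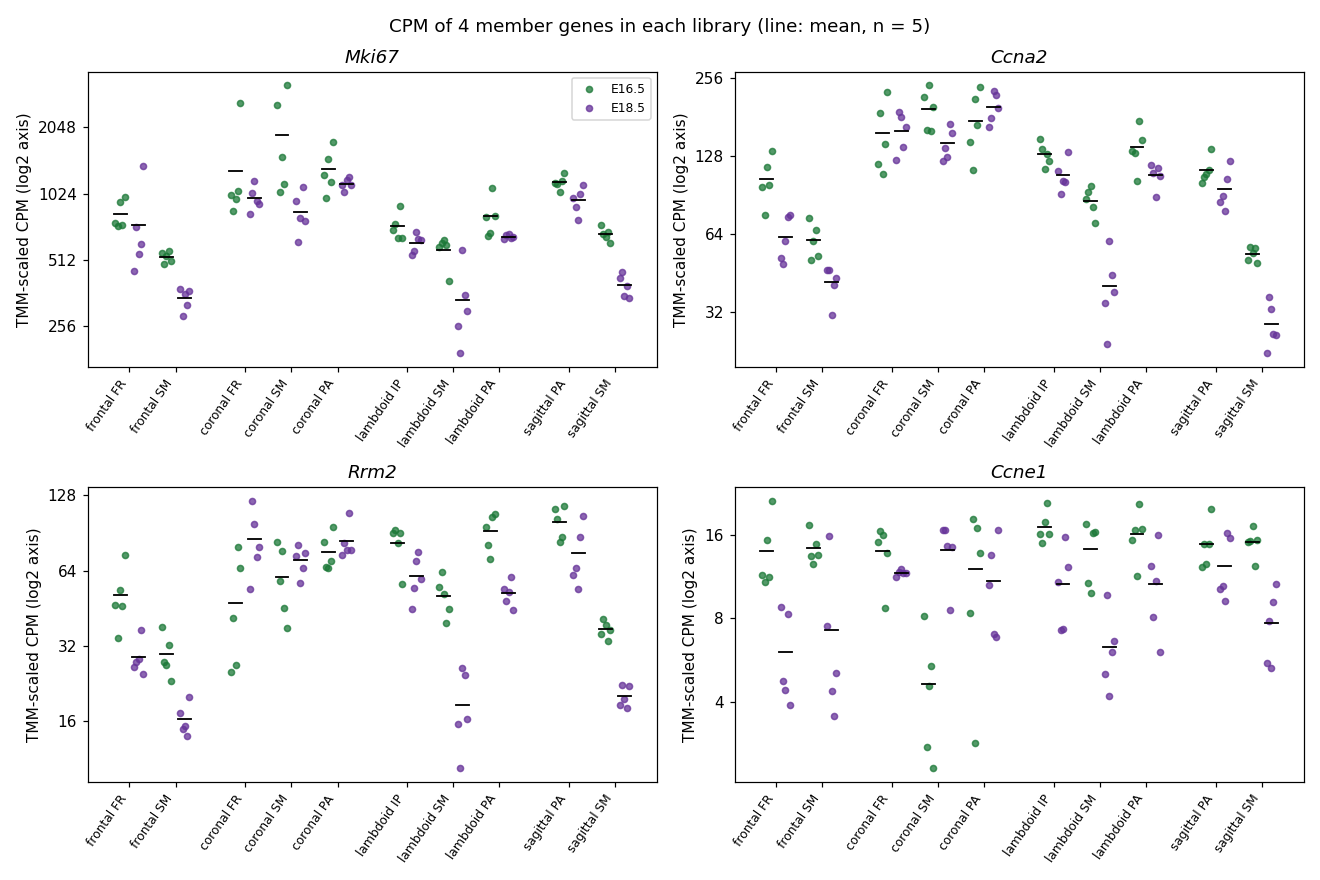
TMM-scaled CPM (log2 axis) of Mki67, Ccna2, Rrm2 and Ccne1 in every first library, by suture, region and age. Each point is 1 embryo and lines are means. Ccne1 in coronal SM at E16.5 is the group that stands under its fronts and under its own level at E18.5.

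Ccne1, cyclin E1, which with Cdk2 drives cells from G1 into S phase, had calls unlike those of the other members. It was called in none of the 8 comparisons outside the coronal suture. In coronal SM at E16.5 it measured 8.12, 2.73, 4.56, 5.38 and 2.29 CPM, against 14.997, 16.503, 16.0, 8.67 and 13.7 CPM in FR. Every SM library was below every FR library (log2 fold change −1.60 ± 0.32, edgeR adjusted p = 4.6e-05). PA held 8.38, 18.2, 2.85, 16.9 and 13.7 CPM, so that its embryo 3 lay within the SM range (−1.38 ± 0.31, adjusted p = 0.00029). By E18.5 coronal SM had reached 16.6, 16.6, 14.5, 8.59 and 14.4 CPM, and the change of the SM-OF difference with age was 1.87 ± 0.44 against FR (adjusted p = 0.0036; 3.78% of all genes higher and 3.90% lower) and 1.75 ± 0.44 against PA (adjusted p = 0.0068; 3.39% of all genes higher). The low values rested on the first set of libraries. Second libraries existed for embryos 1, 2 and 3 of this group, and they gave 15.2, 17.0 and 16.4 CPM where the first gave 8.02, 2.72 and 4.56 CPM on the scale of all bulk libraries. The second libraries of FR scattered as well, at 19.6, 12.9 and 5.85 CPM. With the second libraries in place, the log2 fold change of Ccne1 against FR was −0.12 (adjusted p = 0.86), and over the other alternatives the adjusted p ranged from 2.8e-06 to 0.14. Against PA it was −0.10 (adjusted p = 0.86) with the second libraries in place, and the adjusted p was 0.16 with the suture and age fitted by itself and 0.22 with the embryo as a fixed block (lowest over the alternatives 0.00010). The changes of these differences with age were 0.58 (FR, adjusted p = 0.62) and 0.50 (PA, 0.66) with the second libraries in place, and 1.26 (0.050) and 1.15 (0.081) with them added.

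Within the members, mitotic genes moved more than S-phase genes in several comparisons. Summed over the 8 comparisons outside the coronal suture, 165 of 224 mitotic values (73.7%) and 46 of 96 S-phase values (47.9%) were called lower in SM. In the frontal suture the mitotic median was −0.69 and the S-phase median −0.29 at E16.5, and by E18.5 they were −0.75 and −0.46. The SM-OF difference of the mitotic score was below that of the S-phase score in 5 of 5 embryos in the frontal suture at both ages. At E18.5 the same held in the lambdoid suture against both fronts, in the sagittal suture and between coronal SM and PA. In the other coronal comparisons it held in 1 of 5 embryos against each front at E16.5, where the mean excess was 0.16 (FR) and 0.20 (PA), and in 3 of 5 against FR at E18.5 (−0.10). The excess was −0.35 ± 0.12 in the frontal suture at E16.5 and −0.44 ± 0.17 in the sagittal suture at E18.5 (mean ± SD, n = 5 embryos, log2 scale). At E16.5 it was −0.14 ± 0.30 and −0.23 ± 0.17 in the lambdoid suture and −0.13 ± 0.10 in the sagittal suture, with 3, 4 and 4 of 5 embryos below 0. The part of expression level in this difference was not tested.

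By role, and beside 5.15% to 14.7% of all genes called lower in the 8 comparisons outside the coronal suture, the mitotic kinases and checkpoint genes (Aurka, Aurkb, Plk1, Bub1, Bub1b) were called lower in 34 of 40 values there, the chromosomal passenger genes Birc5 and Cdca8 in 13 of 16, and Top2a and Mki67 in 13 of 16. The fork and nucleotide genes Pcna, Rrm2 and Tyms were lower in 19 of 24 values, the mitotic cyclins with Cdk1 and Cks2 in 31 of 40, and the ubiquitin pathway genes Ube2c and Cdca3 in 13 of 16. Kinetochore genes were called lower in 21 of 32 values and spindle and cytokinesis genes in 40 of 64. Origin licensing genes (Mcm2 to Mcm6, Cdc6, Cdt1) were called in 24 of 56 values and the E cyclins in 3 of 16. Ccna2, Cdk1, Bub1b and Rrm2 were lower in all 8 comparisons. Kif22, a chromosome-arm kinesin, was called in 2 and Mcm4 in 2. Ube2c, Ccne2, Ccna2 and Prc1 share 22.8%, 17.4%, 12.5% and 11.1% of their exon length with a neighbouring gene on either strand, and counting without strand may credit them with the neighbour's reads.

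Promoter sequences are shown for 6 members because the mitotic members moved together and are known targets of the CHR element, while many S-phase genes carry E2F sites. RefSeq promoters (GRCm38.p6, 250 bases before to 50 after the start) were matched for 34 of the 40 members, and not for Ccne2, Tpx2, Aurkb, Ccna2, Mcm4 and Spc24. The 3 motifs searched on both strands were the CHR (TTTGAA or TTCGAA), the CCAAT box (CCAAT) and an E2F site (TTTCCCGC, TTTCGCGC, TTTGCCGC or TTTGGCGC). The 160 bases before the start of each gene are printed 5′ to 3′ on the gene's strand, with motif matches in capitals. They were chosen to show windows with matches. Top2a (chr11:99024190-99024349, minus strand), Mki67 (chr7:135716380-135716539, minus) and Cdk1 (chr10:69352913-69353072, minus) are mitotic, and Mcm5 (chr8:75109349-75109508, plus), Cdc6 (chr11:98907991-98908150, plus) and Mcm2 (chr6:88898781-88898940, minus) are S-phase genes.
Top2a: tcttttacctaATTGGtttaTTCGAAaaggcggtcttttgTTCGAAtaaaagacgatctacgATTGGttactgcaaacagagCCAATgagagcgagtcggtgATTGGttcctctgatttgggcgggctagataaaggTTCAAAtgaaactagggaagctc
Mki67: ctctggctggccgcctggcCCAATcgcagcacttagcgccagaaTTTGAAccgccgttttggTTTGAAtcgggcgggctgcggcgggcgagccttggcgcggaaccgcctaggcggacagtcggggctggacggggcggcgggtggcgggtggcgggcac
Cdk1: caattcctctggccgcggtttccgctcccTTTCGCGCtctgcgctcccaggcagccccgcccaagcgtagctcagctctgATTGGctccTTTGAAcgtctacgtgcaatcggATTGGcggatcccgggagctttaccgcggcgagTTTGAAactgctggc
Mcm5: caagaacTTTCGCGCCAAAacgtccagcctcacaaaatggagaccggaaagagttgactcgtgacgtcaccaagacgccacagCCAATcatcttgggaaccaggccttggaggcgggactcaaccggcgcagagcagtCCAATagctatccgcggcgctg
Cdc6: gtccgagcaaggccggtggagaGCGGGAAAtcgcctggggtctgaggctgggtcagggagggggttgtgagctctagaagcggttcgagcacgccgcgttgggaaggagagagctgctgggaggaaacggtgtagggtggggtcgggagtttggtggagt
Mcm2: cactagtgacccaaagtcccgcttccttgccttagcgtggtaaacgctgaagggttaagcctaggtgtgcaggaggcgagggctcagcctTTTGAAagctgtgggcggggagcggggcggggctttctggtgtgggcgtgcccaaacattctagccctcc

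In Mcm5 the capitals at the left hold 2 overlapping E2F matches, 1 on each strand. Over the whole promoter window, the CHR letters were found in 20 of 24 mitotic members (83.3%), in 1 of 10 S-phase members (10.0%, Mcm2) and in 21.7% of 27025 promoters of all genes. The CCAAT box was found in 23 of 24 mitotic members, 6 of 10 S-phase members and 41.1% of all promoters. E2F letters were found in 5 of 10 S-phase members, in 1 of 24 mitotic members (Cdk1) and in 2.60% of all promoters. These are matches of letters and describe the windows only.

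The second question was how the members changed from E16.5 to E18.5. Age comparisons used different embryos, with 2 to 4 litter labels per suture and age that never crossed ages, so age and litter cannot be told apart. They also share libraries with the comparisons of region above. Outside the coronal suture no member was called higher at E18.5 by edgeR, nor at an unadjusted p under 0.05. The share of all genes called higher was 1.11% and 2.19% in frontal SM and FR, 0.784%, 0.228% and 0.637% in lambdoid SM, IP and PA, and 0.526% and 1.15% in sagittal SM and PA. Lambdoid SM had 33 of 40 members lower (background 2.18%), with a median of −1.01. Sagittal SM had 23 lower (background 0.592%; median −0.92) and frontal SM 21 lower (background 1.22%; median −0.73). Without replicate 1 the count in lambdoid SM was 21. In frontal SM it was 11, 12 and 10 without replicate 2, 3 or 4, and limma voom called 7 and total counts without TMM 34. Sagittal SM had 38 with the sagittal suture fitted by itself. The median mitochondrial share also rose from E16.5 to E18.5 in these groups, from 13.5% to 19.2% in lambdoid SM, 15.0% to 21.0% in sagittal SM and 18.9% to 23.2% in frontal SM, against 15.1% to 17.7% in lambdoid IP, 15.5% to 18.1% in lambdoid PA, 15.4% to 16.7% in sagittal PA and 24.0% to 26.4% in frontal FR. Its part in the age comparisons was not tested.

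Of the fronts, only frontal FR had many members called, 20 of 40 (background 2.15%; median −0.64). That count was 11 without replicate 3, 8 without replicate 5, whose E18.5 library held the 52.3% mitochondrial counts given above, and 13 by limma voom. Lambdoid PA had 1 (Rrm2, background 0.349%), sagittal PA had 1 (Plk1, background 0.450%), and lambdoid IP had 0 (background 0.0607%). No member was called in lambdoid PA when any one replicate was left out, nor in sagittal PA without replicate 1, 2, 4 or 5. For lambdoid IP, 17 members were lower at an unadjusted p under 0.05, limma voom called 0 and DESeq2 called 1, and the median was −0.41. The medians of lambdoid PA and sagittal PA were −0.43 and −0.30. Fitting each suture by itself raised these calls to 5 in lambdoid IP, 6 in lambdoid PA and 12 in sagittal PA.

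Rrm2 in lambdoid SM went from 54.8, 63.1, 51.6, 39.4 and 44.9 CPM at E16.5 to 15.6, 10.4, 26.1, 24.4 and 16.4 CPM at E18.5. The ages did not overlap (log2 fold change −1.45 ± 0.22, edgeR adjusted p = 5.1e-06). Ube2c, the E2 enzyme that works with the anaphase-promoting complex, went from 83.03, 65.0, 78.4, 85.8 and 104 CPM in frontal FR to 34.7, 27.0, 27.3, 40.7 and 21.5 CPM. All 5 later libraries lay under the earlier ones (−1.46, edgeR adjusted p = 1.3e-05). Cenpa, the histone that marks centromeres, went from 53.4, 63.3, 55.8, 53.4 and 52.5 CPM in sagittal SM to 29.2, 26.9, 32.2, 25.4 and 15.2 CPM. There was again no overlap (−1.11 ± 0.17, edgeR adjusted p = 1.5e-05). Mcm5 fell by 1.17 in frontal FR and fell by 1.11 in frontal SM on the log2 scale (adjusted p = 0.00028 and 0.00046), and fell by 1.15 in lambdoid SM (adjusted p = 0.00020).

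**Figure D4:**
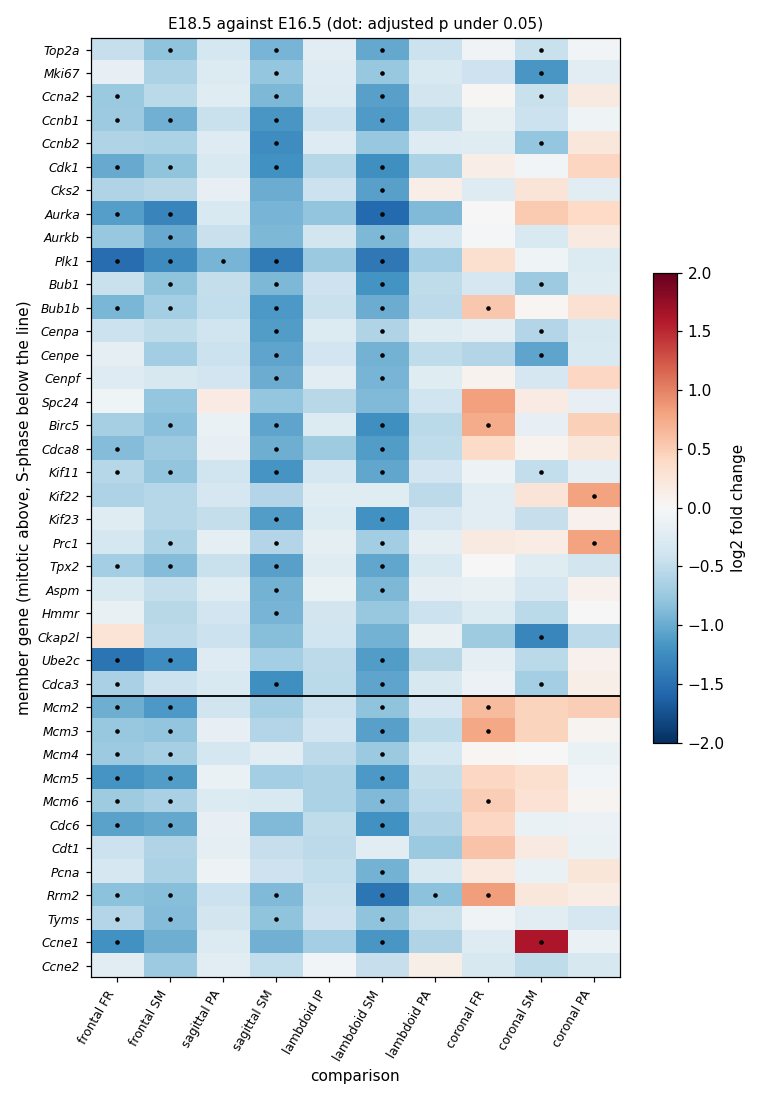
Log2 fold change of each of the 40 members from E16.5 to E18.5 in the 10 combinations of suture and region, mitotic members above the line and S-phase members below it, with dots where edgeR's adjusted p was under 0.05. Lambdoid SM shows 33 members lower, where 2.18% of all genes were called lower. Coronal FR shows 6 higher, or 15.0% of the members, near the 12.6% of all genes called higher there.

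With age, outside the coronal suture, 69 mitotic values (35.2%) and 30 S-phase values (35.7%) were called lower, beside 0.0607% to 2.18% of all genes in these comparisons, but the groups differed. In sagittal SM 21 of 28 mitotic and 2 of 12 S-phase members were lower, and in frontal FR 11 of 28 and 9 of 12. The difference between these groups was not tested. With the sagittal suture fitted by itself nearly all members were called lower in SM, as given above, so the split in counts was not kept there. In the joint fit the medians in sagittal SM were −0.98 for the mitotic and −0.63 for the S-phase members. In frontal FR they were −0.61 and −0.75. The score over all members was 5.42 ± 0.13 in lambdoid SM at E16.5 and 4.40 ± 0.38 at E18.5 (mean ± SD, n = 5, log2 CPM). It was 5.30 ± 0.08 and 4.42 ± 0.15 in sagittal SM, and 4.96 ± 0.13 and 4.18 ± 0.17 in frontal SM. The 2 ages did not overlap in any of these groups. Among the fronts the ages did not overlap in frontal FR (5.53 ± 0.26 and 4.86 ± 0.18), lambdoid IP (5.88 ± 0.10 and 5.46 ± 0.12) and lambdoid PA (5.89 ± 0.22 and 5.48 ± 0.04). In sagittal PA the scores of 6.11 ± 0.13 and 5.79 ± 0.18 overlapped.

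A change of the SM-OF difference with age was tested directly. Outside the coronal suture no member was called in any of the 4 comparisons by edgeR, where the backgrounds for higher and lower were 0.00506% and 0.00% (frontal), 0.0304% and 0.0354% (lambdoid IP), 0.0152% both ways (lambdoid PA) and 0.0101% and 0.0202% (sagittal). The members' medians were −0.56 (lambdoid IP), −0.59 (lambdoid PA), −0.60 (sagittal PA) and −0.16 (frontal FR), and 16, 17, 16 and 0 members had an unadjusted p under 0.05, all lower. DESeq2, limma voom and the other alternatives called none either in these comparisons. The wider E18.5 difference in the lambdoid and sagittal sutures thus did not pass this test gene by gene.

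The coronal mitochondrial medians were 33.8% (FR), 37.2% (PA) and 37.9% (SM) at E16.5. At E18.5 they were 22.8%, 26.4% and 23.3%. The median number of genes detected was 19772, 19930 and 20936 at the earlier age and 24509, 22424 and 23305 at the later. The part of RNA quality in the coronal age comparisons was not tested. In the coronal suture 6 members rose in FR with age (Bub1b, Birc5, Mcm2, Mcm3, Mcm6 and Rrm2, background 12.6%) and none was called lower by edgeR (background 11.8%, 2 at an unadjusted p under 0.05), 2 rose in PA (Prc1 and Kif22, background 11.5%) and none was called lower (background 9.03%, 1 at an unadjusted p under 0.05), and 1 rose in SM (Ccne1, background 13.5%). The 6 members are 15.0% of the 40, near the background, and the shares in PA and SM lie under theirs. Rrm2 in FR measured 25.2, 41.5, 27.0, 79.2 and 65.6 CPM at E16.5 and 53.9, 122, 98.4, 72.2 and 79.7 CPM at E18.5. The ages overlapped, with embryos 4 and 5 of E16.5 inside the later range (log2 fold change 0.84 ± 0.21, edgeR adjusted p = 0.0017). In SM 10 mitotic members were lower (background 13.6%): Bub1, Ccna2, Ccnb2, Cdca3, Cenpa, Cenpe, Ckap2l, Kif11, Mki67 and Top2a. The coronal suture fitted by itself gave 3 lower, the second libraries in place 6, and total counts without TMM 3 lower and 8 higher, with the median turning from −0.20 to 0.17. Without replicate 1 this count in SM was 6, and the higher members numbered 2 and 4 without replicate 2 or 3. In FR total counts without TMM gave 20 higher, and limma voom, DESeq2 and median-ratio size factors each called 2 lower. In PA total counts gave 9 higher and limma voom 6. In FR leaving out replicate 2 gave 3 higher and 3 lower members, and leaving out replicate 4 gave 1 lower. In PA 1 member was higher without replicate 1 or without replicate 2. Mki67 in coronal SM was 953, 619, 794, 1098 and 767 CPM at E18.5, against the 1045 to 3182 CPM of E16.5 given above. Embryo 4 of E18.5 exceeded the lowest E16.5 library (−1.16 ± 0.22, edgeR adjusted p = 2.2e-05). Besides Ccne1, the change of the SM-OF difference with age was called against PA for Ccnb2 (−1.001), Mki67 (−0.94), Cdca3 (−0.79) and Prc1 (−0.65), where 3.67% of all genes were called lower. These 4 calls became 1 or 2 when any one replicate was left out. The mean log2 change from E16.5 to E18.5 was called higher in the coronal suture than the mean of the 7 other age comparisons for 31 of 40 members (background 20.4% in that direction and 17.4% in the other), with a median difference of 0.56, or 1.07 by total counts without TMM.

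The 6 members called higher in coronal FR with age, a share near the background, were each called lower with age in at least 1 group of another suture. The helicase genes Mcm2, Mcm3 and Mcm6 rose by 0.64, 0.77 and 0.49 on the log2 scale in coronal FR. In lambdoid SM their log2 fold changes were −0.80, −1.09 and −0.89, and all 3 also fell in frontal FR and SM. The checkpoint kinase gene Bub1b was at 0.54 in coronal FR and at −1.15 in sagittal SM, and Birc5 at 0.74 and −1.06 in the same groups. Prc1 rose by 0.81 in coronal PA and was at −0.69 in lambdoid SM. Ccne1, at 1.61 ± 0.32 in coronal SM (edgeR adjusted p = 5.4e-05), fell in frontal FR (−1.21 ± 0.32, 0.013) and in lambdoid SM (−1.17 ± 0.32, 0.020). Each of these 3 calls of Ccne1 was lost under some alternative. In coronal SM the change was 0.79 (adjusted p = 0.0997) with the second libraries in place, over a range of 2.8e-06 to 0.0997. In frontal FR limma voom gave 0.075, and leaving out replicate 3 or 5 gave 0.060 and 0.32, over a range of 0.0048 to 0.32. In lambdoid SM limma voom gave 0.18, and leaving out replicate 1, 3, 4 or 5 gave 0.24, 0.051, 0.084 and 0.090, over a range of 0.0016 to 0.24. None of the 6 calls in coronal FR was made with the second coronal libraries in place of the first, with the coronal suture fitted by itself, or without replicate 3.

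The remaining genes of the cycle were taken from fixed lists. The share of all genes called lower was 14.5% in sagittal SM at E18.5, 12.2% and 14.7% in lambdoid SM at E18.5 against IP and PA, and 6.88% in frontal SM at E18.5. Of 26 other mitotic genes, 24 were lower in sagittal SM at E18.5, 24 and 23 in lambdoid SM at E18.5 against IP and PA, and 15 in frontal SM at E18.5, with Racgap1, which directs cytokinesis, at −1.41 and the spindle protein Dlgap5 at −1.70 in the sagittal suture. Of 34 other S-phase genes tested, 23 were lower in sagittal SM at E18.5, among them Uhrf1, the reader of hemimethylated DNA, at −1.35. In coronal SM at E16.5, 8 and 12 of the 34 were higher than in FR and PA, where 15.4% and 19.0% of all genes were called higher. These calls were not recomputed with the second coronal libraries. Of the 8 genes of the anaphase-promoting complex and chromatid separation, 6 were lower in sagittal SM at E18.5, including Cdc20 at −2.04. Of the 7 genes of the Foxm1, Myb and MuvB group, 3 were lower there, with the mitotic activator Foxm1 at −1.03, and of 8 E2F factors 5 were lower, with the repressor E2f7 at −1.20.

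Of the D cyclins with their Cdks, the Cdk inhibitors and the Rb family, 4 genes were called in at least 10 of the 12 comparisons of region. They are named for their number of calls, and not every listed gene is described. In these comparisons 2.41% to 16.6% of all genes were called lower in SM and 1.04% to 19.0% higher. Ccnd1, the cyclin D1 that relays growth signals to Cdk4 and Cdk6, was lower in SM in 12 of 12 comparisons, from −2.38 in the sagittal suture at E16.5 to −0.70 in coronal SM against FR at E18.5. Cdkn1a, the Cdk inhibitor p21, was also lower in SM in 12 of 12, from −4.76 (lambdoid SM against PA at E18.5) to −1.79. Rb1, the retinoblastoma protein, was lower in SM in 12 of 12, from −1.81 to −0.58. Cdkn1c, the Cdk inhibitor p57, was higher in SM in 10 of 12, with its highest value of 1.54 in the sagittal suture at E18.5, and was −0.24 in coronal SM against FR at E16.5. Others of these lists had fewer calls: Ccnd2 was lower in 9 and Cdk6 in 7, with the highest value of Cdk6 (0.21) in coronal SM against FR at E16.5, and Ccnd3, Cdk4, Cdkn1b and Cdkn2c had none. The part of cell type in these genes was not tested.

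Markers of bone and mesenchyme were called between regions in every suture. Of 10 osteoblast markers, 6 to 10 were lower in SM in each of the 12 comparisons, coronal ones included, where 2.41% to 16.6% of all genes were called lower, and the summed marker level in coronal SM at E16.5 was 6929 to 11453 CPM against 28077 to 59364 CPM in FR. In the sagittal suture at E16.5 the sums overlapped, at 26791 to 30221 CPM in SM (median 28043) and 23954 to 33075 CPM in PA (median 26539). In the frontal suture at E18.5 they also overlapped, at 22987 to 34323 CPM in SM and 22993 to 44877 CPM in FR. The ectocranial mesenchyme list of 5 genes had 1 to 5 members higher in SM in each comparison, where 1.04% to 19.0% of all genes were called higher. The summed level of 7 suture mesenchyme markers was higher in SM with no overlap in the coronal and sagittal sutures and against lambdoid PA at E18.5. It overlapped in the other lambdoid comparisons and in the frontal suture. There it was 1859 to 3223 CPM in SM and 1349 to 2136 in FR at E16.5, and 2622 to 3395 and 1684 to 4337 at E18.5. The summed level of the 8 chondrocyte markers was higher in SM with no overlap in each comparison but the coronal ones at E16.5, for example 331 to 385 CPM in SM and 89.7 to 121 CPM in PA in the sagittal suture at E18.5. In the coronal suture at E16.5 it was 83.9 to 126 CPM in SM, 64.6 to 116 CPM in FR and 55.4 to 95.7 CPM in PA. Endothelial markers, 7 genes, were lower in lambdoid SM at E16.5 for all 7 against each front (backgrounds 7.30% and 13.4%), with a sum of 43.3 to 121 CPM in SM, and higher in coronal SM than in PA at E18.5 for all 7 (background 8.27%). Pericyte sums were lower in SM with no overlap in the sagittal suture at both ages and against lambdoid IP at E16.5. Macrophage sums were higher in SM with no overlap in the frontal (302 to 373 against 155 to 221 CPM) and coronal sutures at E18.5. They were lower in sagittal SM at E16.5 (121 to 139 against 140 to 176 CPM). The sums of both lists overlapped in the other comparisons. Of 5 epidermal markers only 1 passed the low-count filter, at no more than 5.67 CPM in any library, and the levels of the others were not measured here. With age, the summed level of the 7 erythroid markers had a median of 2372 CPM at E16.5 and 678 CPM at E18.5 in lambdoid SM, 1067 and 173 CPM in frontal SM, and 1258 and 155 CPM in frontal FR. In sagittal SM it was 641 and 1364 CPM. Endothelial markers were higher at E18.5 for 5 of 7 in lambdoid SM (background 0.784%). The part of these cell types in the members' differences was not tested.

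The single-cell libraries gave the UMIs of the members by cell cluster of the coronal suture. More than 800 genes were detected in 497 of 1530 and 359 of 1482 deposited barcodes of the E16.5 libraries, and in 2625 of 2628 and 1624 of 1999 of the E18.5 libraries. Outliers in UMIs, genes or mitochondrial share (a limit of 3 scaled median absolute deviations) were then removed: the E16.5 libraries kept 466 and 337 cells (median 2501 and 2121 UMIs), while E18.5 kept 2412 and 1577 (18476 and 7131 UMIs). The E16.5 libraries were made with the v3 and the E18.5 libraries with the v2 chemistry, which differ with age in every library. Their effects cannot be told apart, and the ages were not tested against each other. Within an age, the 2 libraries shared 1 barcode at E16.5 and 5 at E18.5. The mitotic members summed to 2023 and 2658 CPM of all UMIs at E16.5 (95% Poisson intervals 1948 to 2099 and 2548 to 2770, for counting error only) and to 840 and 850 CPM at E18.5. With each cell thinned to 1200 UMIs, at least 2 mitotic UMIs were found in 26.6% and 43.6% of cells of the earlier age. At E18.5 they were found in 11.1% and 16.0%. Without thinning the shares were 36.9% and 52.5%, and 74.1% and 65.7%, so that the order of the ages turned with depth.

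At E16.5 the highest thinned share of each library was in osteoclast-like cells (48.7% of 39 cells and 68.3% of 60). Macrophage-like cells had 39.4% of 66 and 57.4% of 47, and both types belong to the blood lineage and are not suture mesenchyme. By mitotic CPM the order turned in library 2, at 4719 in macrophage-like and 3779 in osteoclast-like cells, against 3296 and 3417 in library 1. Endothelial-like cells, at 41.2% of 34 and 42.1% of 38, were above the macrophage-like cells in library 1 and below them in library 2. Of the first osteoblast-like cluster (led by Tnn, Serpine2 and Npnt), 38.7% and 45.6% of cells had them, and of the second (led by Ibsp, Car3 and Ifitm5) 15.8% and 14.3%. Ectocranial mesenchyme-like cells had 15.0% of 80 and 32.0% of 25, chondrocyte-like cells 3 of 12 cells and 31.6% of 38, and hypodermis-like cells 18.9% of 122 in library 1, with 1 such cell in library 2. An unnamed cluster led by Nppc and Shisa3 had 0% of 32 cells (exact 95% binomial interval up to 10.9%), the lowest share of library 1, and 14.3% of 28 in library 2, level with the second osteoblast-like cluster. Shares in a cell type that lacks the members were not measured at E16.5, so the part of free RNA in these shares was not tested.

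At E18.5 an unnamed cluster, led by Mxd3, Hist1h2ap and Depdc1a, had 6051 and 4772 mitotic CPM, with 93.9% of 115 cells and 92.5% of 93 cells above the mark. It held 20499 of 45080 mitotic UMIs in library 1 and 4880 of 11682 in library 2, so most lay in other clusters. The members and the listed cell-cycle genes were left out of the clustering, but the leading genes of this cluster are further genes of cell division, so these values describe how the cluster was formed. Elsewhere the shares were 50.8% and 22.2% in osteoclast-like, 21.1% and 35.1% in macrophage-like, and 27.6% and 18.52% in pericyte-like cells. Ectocranial mesenchyme-like cells had 2.00% and 7.41% and osteoblast-like cells 0.885% and 5.70%, the lowest shares among the named clusters with at least 20 cells. The part of free RNA in the shares of any cluster at E18.5 was not tested. An unnamed cluster led by Ptx4, with Hhip among its leading genes, had 5.32% and 3.51%. The one led by Xist and Tnc, with Alpl and Postn further down, had 16.3% of 367 cells in library 2. Those led by Cp, Scara5 and Slc47a1 had 3.56%, 2.33% and 1.72% in library 1 and 17.9%, 5.56% and 7.69% in library 2. The one led by Gm26771 had 9.46% of 296 cells in library 2. Over all cells the 95% intervals of the thinned shares of the 2 libraries did not overlap at either age. Those of the mitotic CPM overlapped at E18.5, at 832 to 847 and 834 to 865. Of the E18.5 clusters, 3 came almost wholly from library 2, with 367, 296 and 79 cells there against 8, 1 and 1 in library 1. The smallest of the 3 was erythroid-like, and 11.4% of its 79 cells had at least 2 mitotic UMIs (median depth 9424 UMIs before thinning). Library 1 held most of the ectocranial mesenchyme-like (451 against 27 cells), chondrocyte-like (117 against 10) and a further unnamed cluster (393 against 28).

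**Figure D5:**
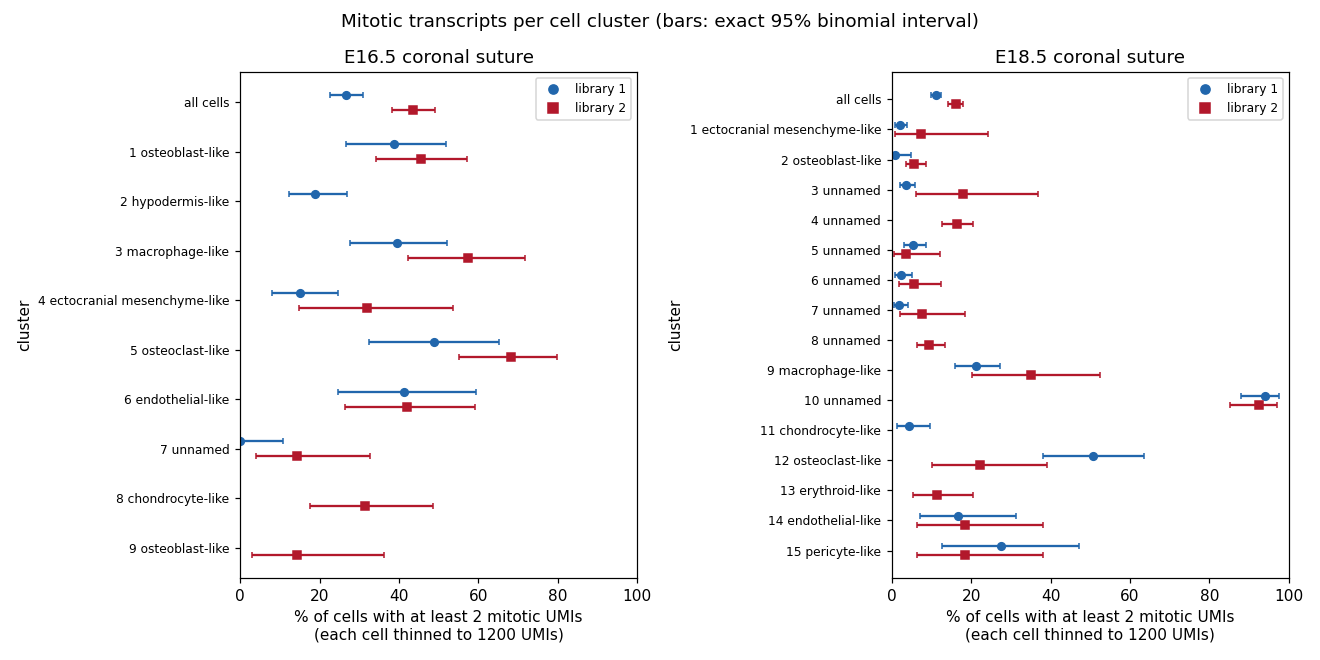
Share of cells with at least 2 UMIs of mitotic members after thinning each cell to 1 depth, by cluster, age and library, for clusters with at least 20 thinned cells in the library, with exact binomial 95% intervals that cover counting error only. The osteoclast-like cluster has the highest share in both E16.5 libraries, and 1 cluster led by Mxd3 stands apart at E18.5.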

How the data were processed

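The authors deposited raw read counts per gene for each laser-captured library, made with cutadapt, STAR 2.5.3a and featureCounts 1.6.4 (paired fragments, counted without strand, mm10, GENCODE annotation), after amplification of the RNA with a kit that does not keep molecule counts. They also deposited UMI counts of the 4 single-cell libraries and a table of their own log2 ratios, which was not used here. The 100 first libraries entered 1 fit in edgeR 4.0.16 (R 4.3.3) with 1 mean per group: genes with at least 1 CPM in more than 10% of libraries were kept, TMM factors scaled the libraries, and the quasi-likelihood test gave p-values that were Benjamini-Hochberg adjusted within each comparison. Scores were means over members of log2 CPM with a prior count of 2. Litters lay within an age. The members and lists were chosen with earlier results of these data known.

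Values by library are given for Mki67, Top2a, Ccnb1, Mcm5, Ccne1 and for the 2 mitotic and 2 S-phase members of smallest adjusted p among comparisons of region and of age. Each is printed for some of the groups only, for several of them those of the comparison with that smallest p. Members called in both directions are named, and at most 3 genes of any other list, except for the D cyclins with their Cdks and the Cdk inhibitors. SM and OF libraries of an embryo pair by the labels, and their deviations from the group means correlated with a median r of 0.05 over 60 pairs, against −0.01 over 240 other pairs. On simulated counts for the frontal E16.5 comparison with 19768 genes, 56 of 100 genes changed 2-fold and 89 of 100 changed 3-fold were recovered, with 5 false calls. Single cells with more than 800 genes, within 3 median absolute deviations for UMIs and genes and not above that for mitochondrial share, were clustered by age, without the members and the listed cell-cycle genes, with scanpy 1.11.5 on 2000 variable genes at resolution 0.8, named from fixed markers by a rule set after the clusters were seen, and no doublet caller was run. The alternatives were limma 3.58.1 voom, DESeq2 1.42.0, other scalings and filters, the embryo as a block, single sutures, each replicate left out, and the 18 second coronal libraries. The 16 complete-suture libraries entered no comparison.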

Additional observations from a re-analysis of the deposited data

Results flagged for a closer look

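Of 280 groups of 5 values examined, 17 held 1 library far from the other 4 by Dixon's criterion, and chance flags about 1 group in 20. Among them were 2 scores over all members: replicate 5 of sagittal PA at E16.5 (6.344) and replicate 2 of sagittal SM at E16.5 (5.438). Mki67 stood apart in replicate 5 of coronal FR at E16.5 (2640 CPM), of frontal FR at E18.5 (1371 CPM) and of lambdoid SM at E16.5 (409 CPM). Ccnb1 did so in replicate 4 of lambdoid PA at E16.5 (85.9 CPM), and Ube2c in replicate 5 of coronal PA (155 CPM) and replicate 2 of lambdoid PA (138 CPM) at E16.5. Cdca3 was at 66.1 CPM in replicate 5 of coronal SM at E16.5 and 28.4 CPM in replicate 4 at E18.5. Replicate 5 of coronal FR, PA and SM at E16.5 held 52.4%, 42.7% and 51.0% mitochondrial counts. Mcm5 was at 18.8 CPM in replicate 1 of coronal PA at E16.5, 54.3 CPM in replicate 1 of coronal SM at E18.5 and 41.8 CPM in replicate 2 of lambdoid IP at E18.5. Pcna was at 102 CPM in replicate 1 of lambdoid SM at E16.5 and 97.1 CPM in replicate 4 of lambdoid IP at E18.5. Rrm2 was at 108 CPM in replicate 4 of coronal PA at E18.5, and Ccne1 at 8.59 CPM in replicate 4 of coronal SM at E18.5.

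The change of the SM-OF difference with age was called in the coronal suture for Ccne1 against FR (1.87 on the log2 scale) and, against PA, for Ccne1 (1.75), Ccnb2 (−1.001), Cdca3 (−0.79), Mki67 (−0.94) and Prc1 (−0.65). With the second coronal libraries in place of the first or added to them, none of these 6 calls was made. The coronal suture differed from the mean of the other comparisons for 37 members in the SM-OF difference and for 31 members in the change with age.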

How the results depend on the processing

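Calls of the members given by library, Cenpa and Ccne1 included, were followed singly and none changed sign. The other calls were followed as counts only. Over the 17 alternatives, members lower in SM numbered 29 to 36 in lambdoid E18.5 IP, 32 to 37 in PA, 28 to 39 in sagittal E16.5 and 37 to 40 in sagittal E18.5. Calls in the frontal suture and in the lambdoid suture at E16.5 moved more. Frontal E16.5 gave 7 without replicate 3 or 5 and 32 by itself, and lambdoid E16.5 IP gave 0 without replicate 1 or 4 and 19 by itself, against 19 and 8. Sagittal SM with age rose from 23 to 38 by itself. Leaving out 1 replicate gave 4 to 13 calls higher in SM, 72 to 92 members lower with age (109 with all), 1 to 3 lower for the change of the SM-OF difference with age, and 0 to 1 lower for the coronal suture against the others.

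Summed over comparisons, 7 calls were higher in SM. Limma voom gave 12, DESeq2 11, total counts without TMM 20, the second coronal libraries in place 0 and added 1, and each suture and age by itself 0. The replicate block, pairing SM and OF by embryo, gave 15 as a random term and 0 as a fixed term. With age 9 calls were higher: voom 17, replicate block 17, total counts 37, second libraries in place 0, added 3, each suture by itself 2. The change of the SM-OF difference with age had 2 calls higher, 0 with the second libraries either way, and 4 lower, against 7 by voom, 7 with the replicate block, 2 by total counts, 2 without a filter and 0 with the second libraries either way. The coronal suture against the others had 0 lower, and 1 with median-ratio size factors and with DESeq2.

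Total counts without TMM moved the members' median to 0.23 (coronal E16.5 PA), 0.025 (coronal E18.5 PA), 0.48, 0.30 and 0.17 (coronal FR, PA and SM with age), −0.92 (frontal SM with age) and 1.07 (coronal against the others, with age). Differences of scores moved to 0.17, 0.052, 0.62, 0.36, 0.24 and −0.98 in the first 6, and the sign turned in coronal E16.5 PA (from −0.013), coronal E18.5 PA (from −0.24) and coronal SM with age (from −0.14). The cause was not tested.

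In the single cells, cutoffs of 500 and 1000 genes gave mitotic CPM of 1813 and 2179 (E16.5 library 1), 2219 and 2872 (E16.5 library 2) and 816 and 877 (E18.5 library 2). Shares of thinned cells became 33.4% (E16.5 library 1, 1000 genes), 36.7% (E16.5 library 2, 500 genes) and 13.7% (E18.5 library 2, 500 genes). Thinning to 2500 UMIs gave 46.4% and 53.4% in the E16.5 libraries. The E18.5 libraries then had 17.2% and 26.4%. The highest cluster had 3778 CPM (E16.5 library 1, 1000 genes), 3629, 4097 and 3779 CPM (E16.5 library 2, 500 genes, 1000 genes and thinning to 2500), 5496, 5728 and 5947 CPM (E18.5 library 1, 500 genes, 1000 genes and resolution 1.2) and 4407 and 4629 CPM (E18.5 library 2, 500 and 1000 genes). In the main setting the highest cluster with at least 20 thinned cells had 3417 and 4719 CPM at E16.5 and 6051 and 4772 CPM at E18.5. The 3779 CPM is that of the osteoclast-like cluster, and CPM itself does not change with thinning.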

Other observations

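Complete-suture libraries at E18.5, 4 sets of 4 sutures, hold mesenchyme and fronts together and entered no comparison. Their score over all members was 4.417 to 4.709 in the frontal suture, which was the lowest in each of the 4 sets, 4.512 to 4.763 in the lambdoid, 4.712 to 4.954 in the coronal and 4.720 to 4.984 in the sagittal suture (log2 CPM). The first coronal E18.5 libraries that have a second one scored 5.469 to 5.952 on the same scale, above the complete coronal ones. In the other sutures the complete libraries lay between the E18.5 means of SM and fronts given above. Those means are on the scale of the 100 first libraries. The reason for the coronal difference was not tested. The 18 second coronal libraries scored above the first library of the same sample in 18 of 18 cases, by a median of 0.178 and by 0.026 to 0.429. Single members moved in both directions. Mki67 and Ccna2 were lower in every second library, while Mcm5 and Cdca3 were higher in every one. In coronal SM of embryo 1 at E16.5, Mki67 went from 2555 to 953 CPM and Mcm5 from 37.1 to 67.1 CPM.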
